A study of Mus musculus with 7 samples.

Results

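Schwann cells are the glia of peripheral nerves, and 8 genes that mark them or the myelin they make were followed in mouse bladder: Sox10, Foxd3, Erbb3, Cdh19, S100b, Pmp22, Mbp and Mal. These 8 genes were among the 18193 for which the array carried at least 1 probe set (a group of short probes that together read 1 transcript region) that its annotation gives to that gene alone. They had 20 such probe sets, of 45037 probe sets that were not array controls, and the probe set with the highest mean over the 7 arrays stood for the gene. The rule that picks the probe sets uses no difference between groups.

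Male FVB/N bladders of 2 ages were measured, next to a standard made of whole animals. The adult bladder group held 3 arrays (Theiler stage 28) and the postnatal day 1 (P1) bladder group held 3 arrays (Theiler stage 27); all 6 came from SMGA/EGFP transgenic males, which carry enhanced green fluorescent protein under the promoter of Actg2, the gene of smooth muscle gamma-actin. The whole newborn group was 1 array of wild-type FVB/N mice at postnatal day 1, a pool of 4 males and 4 females (Theiler stage 27); its title names bladders, but its source and dissection text speak of entire animals, which is how it was taken. RNA was amplified in 2 rounds and read on Affymetrix mouse 430 2.0 arrays. Adult bladders were kept in liquid nitrogen and P1 bladders frozen at a higher temperature, so effects of age and of storage cannot be told apart. The whole newborn differs from P1 bladder in tissue, transgene and sex. Each bladder was labelled as not pooled, and p-values measure the spread between these single samples.

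In an autonomic nerve such as those of the bladder, most axons lie in bundles inside non-myelinating Schwann cells, and fewer axons are wrapped in myelin. Sox10 and Foxd3 are transcription factors of the neural crest, the embryonic source of these cells, and Sox10 is kept throughout the Schwann lineage and is needed for the myelin genes. Erbb3 is the receptor subunit through which neuregulin from axons keeps Schwann cell precursors alive. Cdh19 (cadherin 19) is an adhesion molecule of the early Schwann lineage, and S100b is a calcium-binding protein used to mark Schwann cells. Pmp22, Mbp and Mal encode proteins of the myelin membrane. Several of these genes have other sources: Erbb3 is expressed in many epithelia, Pmp22 in fibroblasts and epithelia, S100b in adipocytes, transcripts of the Mbp locus in lymphocytes and neurons, and Mal in the urothelium, the lining of the bladder. In whole bladder RNA a lower level from fewer cells and one from less RNA per cell cannot be told apart.

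Sequence around the transcription start was available for 4 of the 8 genes, from RefSeq on build GRCm38.p6, as 250 bases before and 50 bases after each annotated start. Pmp22 is shown first because it is known to be transcribed from alternative first exons, of which one is used mainly by myelinating Schwann cells, while its single probe set on this array gives 1 value for the gene. RefSeq lists 4 starts of Pmp22 in this table, and the outermost upstream start and the next one are printed 5′ to 3′ on the plus strand of chromosome 11, at chr11:63128732-63129031 and chr11:63131207-63131506. Mal, the one gene whose standing probe set was called against the whole newborn, is printed 5′ to 3′ on the minus strand, at chr2:127656646-127656945. Capitals mark the GC box, GGGCGG on either strand, and no other motif is marked.
Pmp22 start 1: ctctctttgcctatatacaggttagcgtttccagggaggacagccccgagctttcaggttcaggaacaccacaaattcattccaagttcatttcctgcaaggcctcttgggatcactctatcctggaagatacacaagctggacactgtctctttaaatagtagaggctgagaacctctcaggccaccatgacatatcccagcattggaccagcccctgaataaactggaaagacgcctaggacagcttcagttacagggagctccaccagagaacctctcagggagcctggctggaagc
Pmp22 start 2: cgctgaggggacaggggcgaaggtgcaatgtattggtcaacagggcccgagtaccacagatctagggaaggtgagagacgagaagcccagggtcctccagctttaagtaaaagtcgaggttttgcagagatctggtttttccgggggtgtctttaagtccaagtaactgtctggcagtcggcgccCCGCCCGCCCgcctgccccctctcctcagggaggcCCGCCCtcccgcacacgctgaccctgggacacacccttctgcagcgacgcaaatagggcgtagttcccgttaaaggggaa
Mal start 1: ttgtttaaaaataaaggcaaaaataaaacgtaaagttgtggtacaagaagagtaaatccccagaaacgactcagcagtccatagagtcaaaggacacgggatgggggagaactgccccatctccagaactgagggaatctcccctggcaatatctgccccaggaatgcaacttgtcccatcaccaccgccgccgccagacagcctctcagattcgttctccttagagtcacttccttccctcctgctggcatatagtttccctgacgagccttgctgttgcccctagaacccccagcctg
Pmp22 start 1 had 50.7% G and C and 3 CpG dinucleotides, and start 2 had 60% and 18 CpG, while the 3rd and 4th starts had 66.3% with 20 CpG and 72.3% with 30 CpG. The upstream start therefore differed most in base composition from the other Pmp22 starts, with the median over all 32851 promoters of the table at 52.7% and 7 CpG. GC boxes were found at starts 2 and 4 of Pmp22 (3 matches each, of which 2 overlap), a motif that 35.7% of all promoters hold, and not at starts 1 and 3 or in the windows of Mal, S100b and Foxd3. The other motifs searched on both strands were the SOX core sequences ACAAAG (18.7% of all promoters) and ACAATG (12.6%), the EGR motif GCGNGGGCG (5.55%) and TATAAA (13.6%), and none of them occurred in the 7 windows of the 4 genes. A match is a string of letters and not a measured binding site.

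The arrays were deposited as linear intensities scaled by the authors to the same trimmed mean, and the median intensity was 226.1 to 311.7 on adult arrays, 208.8 to 290.2 on P1 arrays and 434.1 on the whole newborn array. Replicates of a stage correlated across probe sets at r = 0.894 to 0.935 on the log2 scale. Adult replicate 2 stood apart in several ways: its hybridization spike-ins were 2.35 times those of the lowest array, against 1.0 and 1.11 times in adult replicates 1 and 3, 1.15 to 1.68 times in P1 bladders and 1.82 times in the whole newborn. Adult replicates 1 and 3 carried transcripts of male accessory glands (8 of 10 markers above the array median, summed intensity 10480 and 10380), which were low in adult replicate 2 (0 of 10, 438.6), in P1 bladders (0 of 10 on each, 289.8 to 499.4) and in the whole newborn (1 of 10, 1234). A sign of RNA quality, the 3' over 5' ratio of Actb, moved with stage (3.84 to 5.15 in adult bladders, 1.85 to 3.7 in P1 bladders, 3.09 in the whole newborn), while that of Gapdh overlapped (15.3 to 19.6, 19.1 to 30.9 and 21.4 in the same order), and its part in the results was not tested. Values without adult replicate 2 are given for, among others, Cdh19, the standing Mbp probe set and Egr2. All 16 urothelial markers lay above the median on all 6 bladder arrays and 14 did in the whole newborn, at summed intensities given with Mal.

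**Figure D1:**
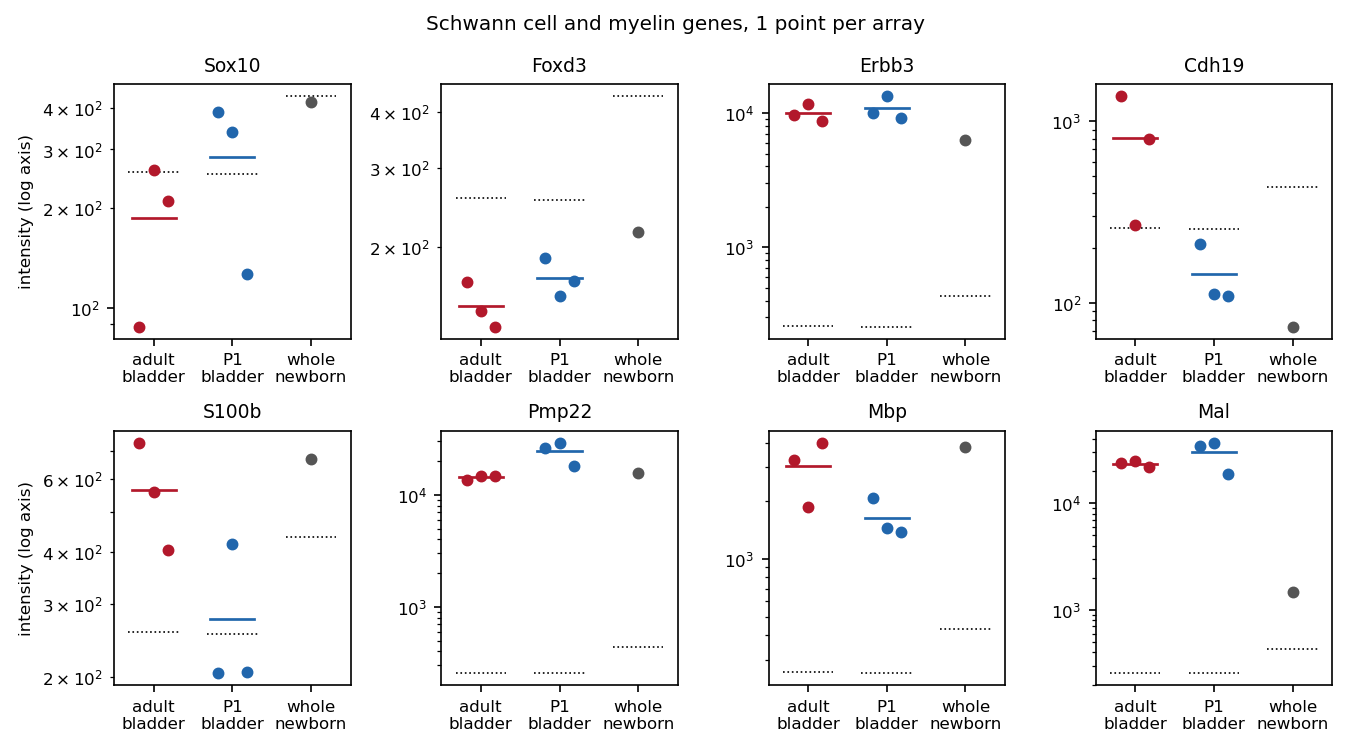
Intensity of the standing probe set of each gene (log axis) on the 3 adult bladder arrays, the 3 P1 bladder arrays and the whole newborn array. Points are arrays, coloured lines are the mean of 3 arrays, and dotted lines are the mean of the arrays' median intensities. Mal lies far above the whole newborn in both bladder groups, Pmp22 is lower in all 3 adult than in all 3 P1 bladders, Cdh19 is higher in all 3 adult bladders, and Foxd3 lies below the median everywhere.

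Of the 8 genes, 5 could be tested between adult and P1 bladder and 0 passed, where 7.85% of 23304 tested probe sets did (3.73% higher and 4.12% lower in adult bladder; limma, Benjamini-Hochberg adjusted p under 0.05). At an unadjusted p under 0.05 there were 3, S100b and Mbp higher and Pmp22 lower in adult bladder. The share of all tested probe sets at this looser cut was not computed. Counts at the same cut, here and below, thus have no background to be set against. Only a probe set above its array's median on at least 3 of the 6 bladder arrays was tested, which left out Sox10, Foxd3 and Cdh19. The 2 groups did not overlap for 2 of the 8 genes, Cdh19 (adult higher) and Pmp22 (adult lower). Of the 5 tested genes this was 1, Pmp22, where 29.2% of the tested probe sets were likewise without overlap (14.4% with adult bladder higher, 14.8% lower). Counting all 20 probe sets, 12 were tested and 3 were called, all 3 of Mbp and all higher in adult bladder, the direction of 3.73% of tested probe sets.

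**Figure D2:**
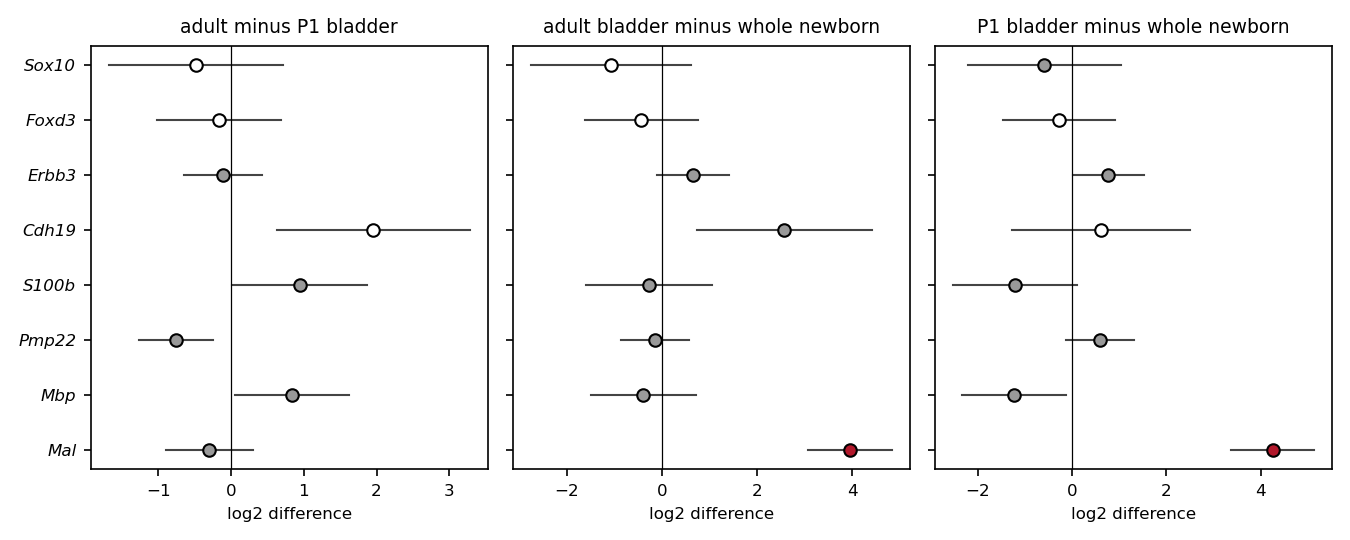
Log2 differences of the 8 genes with 95% confidence intervals for adult minus P1 bladder, adult bladder minus whole newborn and P1 bladder minus whole newborn. Red points passed the test, grey points were tested and did not, and open points were left out by the filter on low values and come from the same model without it. Mal is the gene with red points, at 3.95 for adult bladder and 4.25 for P1 bladder against the whole newborn.

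Sox10, the transcription factor on which the lineage depends, was read at 87.87, 260.8 and 210.2 by probe set 1424985_a_at in adult bladders, against 389.2, 338.7 and 127.0 in P1 bladders and 416.0 in the whole newborn. The whole newborn had the highest value and adult replicate 1 the lowest, the 2 bladder groups overlapped, and only P1 replicates 1 and 2 lay above their array's median. The difference of adult minus P1 bladder was -0.48 ± 0.53 (SE) on the scale of log2(intensity + 49) and was not past the threshold in the model without the filter (adjusted p = 0.724). Without adult replicate 1, the lowest array, it was -0.13, and with adult replicate 2 as the sole adult array it was -0.0028. Sox10 lay below the whole newborn in all 3 P1 bladders, with a tested difference of -0.58 ± 0.72 (adjusted p = 0.694) that came out at 0.099 after median centring and 0.11 after quantile normalization. Its other probe sets, 1451689_a_at and 1425369_a_at, lay below the array median on all 7 arrays, at 48.69 to 190.1 and 11.58 to 29.32 in adult bladders, against 26.49 to 58.18 and 21.87 to 82.24 in P1 bladders and 73.9 and 52.94 in the whole newborn.

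Foxd3, which marks the neural crest and early glial precursors, was at 166.5, 143.3 and 132.2 in adult bladders, against 188.6, 154.9 and 167.4 in P1 bladders and 215.3 in the whole newborn. All 7 values were below their array's median, and adult and P1 bladders overlapped. The difference without the filter was -0.16 ± 0.37 for adult minus P1 bladder (adjusted p = 0.888). Whether these intensities exceed the background was not tested, since the files give no detection calls.

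Erbb3, the neuregulin receptor subunit, was read well above the array median on all 7 arrays: 9714.8, 11729.8 and 8675.6 in adult bladders, against 10086.6, 13417.8 and 9249.5 in P1 bladders and 6286.1 in the whole newborn. The adult and P1 values interleaved, and all 6 bladder values lay above the whole newborn. The adult minus P1 difference was -0.11 ± 0.24 with a 95% interval of -0.65 to 0.42 (adjusted p = 0.824). From the whole newborn, Erbb3 differed by 0.66 ± 0.33 in adult bladder (adjusted p = 0.248) and 0.77 ± 0.33 in P1 bladder (adjusted p = 0.206), neither past the threshold. A further Erbb3 probe set, 1452482_at, averaged 48.7 ± 41.5 in adult bladders and 37.9 ± 32.6 in P1 bladders (SD, n = 3 each), below the array median on all 7 arrays, so the gene's value rests on 1434606_at.

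Cdh19 had the widest gap between stages among the 8 genes. Probe set 1457373_at gave 1380.7, 268.0 and 794.6 in adult bladders, against 210.1, 111.1 and 109.0 in P1 bladders and 73.3 in the whole newborn. Every adult value exceeded every P1 value and every bladder value exceeded the whole newborn, but adult replicate 2 was close to P1 replicate 1 and only adult replicates 1 and 3 lay above their array's median. Cdh19 thus fell just short of the filter, with 2 of the 3 arrays required, and without the filter the adult minus P1 difference was 1.96 ± 0.58 (95% interval in the plot of log2 differences, adjusted p = 0.127). Without adult replicate 2 it was 2.55, and without single P1 arrays 1.83 to 2.19. Fewer arrays above the median are then enough for the test, and Cdh19 enters it only through adult arrays, where it is high, so a call in those settings is no support for a difference. The same holds for adult bladder against the whole newborn, where Cdh19 was above the whole newborn in 3 of 3 adult arrays, by 2.57 ± 0.81 (adjusted p = 0.106 without the filter), and by 3.17 without adult replicate 2. The 2 adult arrays with the higher Cdh19 were those with accessory gland transcripts, whose part in the difference was not tested.

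S100b, read by 1434342_at, was at 734.1, 557.2 and 404.9 in adult bladders, against 204.4, 419.0 and 206.5 in P1 bladders and 670.1 in the whole newborn. The adult values were the higher ones, apart from P1 replicate 2, which was above adult replicate 3. The difference was 0.94 ± 0.41 for adult minus P1 bladder (95% interval 0.016 to 1.87, adjusted p = 0.203). The adult bladders lay on both sides of the whole newborn, with -0.26 ± 0.58 (adjusted p = 0.823) that became 0.41 with median centring and 0.26 with quantile normalization, and the P1 bladders were all below it, with -1.21 ± 0.58 (adjusted p = 0.256). Of 3 adipocyte genes tested between the stages, 1 was called higher and 1 lower in adult bladder. Adipoq, the gene of the fat cell hormone adiponectin, was at 1167.1, 466.2 and 1230.8 in adult bladders, against 51.6, 2.28 and 30.0 in P1 bladders and 9087.9 in the whole newborn (3.65 ± 0.51, adjusted p = 0.00461). The P1 values of Adipoq all lay below their array's median. It entered the test only through adult arrays, where it is high, so its call is a description and no support. Fabp4, a fatty acid carrier of fat cells and capillaries, ran the other way, at 26313.8, 24908.6 and 25855.3 in adult bladders, against 40029.7, 50073.6 and 39830.4 in P1 bladders and 50753 in the whole newborn (-0.74 ± 0.18, adjusted p = 0.0345). Pparg, a regulator of fat cells, differed by -0.15 ± 0.26 (adjusted p = 0.782). Of 8 adipocyte genes, 5, 3 and 5 were above the median in the adult bladders, 2 in each P1 bladder and 7 in the whole newborn, with summed intensities of 31800 to 34370, 45070 to 57300 and 104700. Fabp4 made up most of the sum on each bladder array. The mean log2 level of the list was 8.65 to 9.55 in adult bladders, 8.27 to 8.4 in P1 bladders and 11.42 in the whole newborn. The part of fat cells in the S100b values was not tested. The second S100b probe set, 1419383_at, was below the median on all 7 arrays, averaging 13.0 ± 10.5 in adult bladders and 37.2 ± 33.0 in P1 bladders (SD, n = 3 each).

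Pmp22, a membrane protein of compact myelin, ran opposite to Cdh19 and S100b. Its probe set 1417133_at gave 13523.1, 14593.3 and 14791 in adult bladders, against 26181.2, 29328.3 and 18122.4 in P1 bladders and 15827.2 in the whole newborn. All 3 adult values were below all 3 P1 values and below the whole newborn, and P1 replicate 3 was the P1 array nearest to the adults. The difference was -0.75 ± 0.23 (95% interval -1.26 to -0.24), a level 0.595 times that of P1 bladder, with adjusted p = 0.0769. Without P1 replicate 3 it was -0.95 and passed (adjusted p = 0.0439), and quantile normalization gave -0.75 with adjusted p = 0.0496. The differences from the whole newborn were -0.15 ± 0.32 in adult bladder (adjusted p = 0.818), or 0.52 after median centring, and 0.60 ± 0.32 in P1 bladder (adjusted p = 0.305).

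Mbp, myelin basic protein, had 8 probe sets, and they did not read alike. The standing probe set 1433532_a_at gave 3243.4, 1853.4 and 3997.9 in adult bladders, against 2067.8, 1443.9 and 1372.7 in P1 bladders and 3800.3 in the whole newborn. Adult replicate 2 fell among the P1 values, so the stages overlapped, and adult replicates 1 and 3 were near the whole newborn. The difference was 0.83 ± 0.35 (95% interval 0.049 to 1.61, adjusted p = 0.183), and 1.15 without adult replicate 2 (adjusted p = 0.0529). From the whole newborn the adult bladders differed by -0.39 ± 0.49 (adjusted p = 0.668), or 0.28 after median centring, and the P1 bladders by -1.22 ± 0.49 (adjusted p = 0.176). The probe set stood for the gene by a small margin, its mean over 7 arrays being 2539.9 against 2487.0 for 1456228_x_at.

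Probe set 1456228_x_at of Mbp gave 3605.1, 2812.2 and 4248.6 in adult bladders, against 1193.9, 796.6 and 1100.3 in P1 bladders and 3652.3 in the whole newborn. All adult values were more than 2 times the highest P1 value. The difference was 1.74 ± 0.30, a fold of 3.34 (adjusted p = 0.0099). Probe set 1436201_x_at followed the same order, with 1526.2, 1158.8 and 1925.1 in adult bladders, against 768.9, 321.1 and 482.0 in P1 bladders and 1799.6 in the whole newborn, and differed by 1.52 ± 0.38 (fold 2.86, adjusted p = 0.0424). Probe set 1454651_x_at gave 687.9, 751.3 and 925.2 in adult bladders, against 307.6, 210.6 and 227.5 in P1 bladders and 750.0 in the whole newborn, and differed by 1.5 ± 0.34 (fold 2.82, adjusted p = 0.0311). In all 3 the adult bladders stood beside the whole newborn and the P1 bladders below both. The suffix _x_at marks a probe set in which some probes also match other sequences, so these calls are uncertain as readings of Mbp alone. The call of 1436201_x_at ended with median centring (1.5, adjusted p = 0.0557), and both calls ended without the filter (adjusted p of 0.0796 and 0.0670). Both smaller calls also ended when single arrays were left out: 1436201_x_at without adult replicate 1, adult replicate 3, P1 replicate 2 or P1 replicate 3 (differences of 1.24 to 1.51, adjusted p of 0.0852 to 0.175), and 1454651_x_at without any one array other than adult replicate 2 (1.38 to 1.63, adjusted p of 0.0536 to 0.160). The call of 1456228_x_at ended without adult replicate 1 (1.72, adjusted p = 0.0502) and without adult replicate 3 (1.60, adjusted p = 0.0630).

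The other 4 Mbp probe sets were not called between stages. Probe set 1419646_a_at gave 1212.1, 638.2 and 1556.2 in adult bladders, against 724.0, 413.0 and 690.5 in P1 bladders and 851.9 in the whole newborn, a stage difference of 0.80 ± 0.40 (adjusted p = 0.269). Probe set 1425264_s_at, whose suffix marks probes shared by several transcripts, ran the other way, with 1725.0, 1296.2 and 1916.8 in adult bladders, against 1709.5, 2351.6 and 2789.9 in P1 bladders and 974.3 in the whole newborn. Its difference was -0.45 ± 0.30 (adjusted p = 0.418), and it was the one tested Mbp probe set for which all 6 bladder values exceeded the whole newborn. The last 2, 1425263_a_at and 1451961_a_at, overlapped between stages, at 105.9 to 768.0 and 60.79 to 131.0 in adult bladders, against 284.7 to 825.2 and 32.04 to 251.0 in P1 bladders and 584.4 and 259.9 in the whole newborn. Which Mbp transcript each probe set reads was not analysed here. T lymphocytes are another source of transcripts of this locus. Of 6 markers 1, 0 and 0 were above the median in adult bladders, 0 in each P1 bladder and 3 in the whole newborn, with summed intensities of 585.1 to 637.6, 197.7 to 273.8 and 2661. The T lymphocyte sum was thus higher in all 3 adult than in all 3 P1 bladders, and its part in the Mbp values was not tested.

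**Figure D3:**
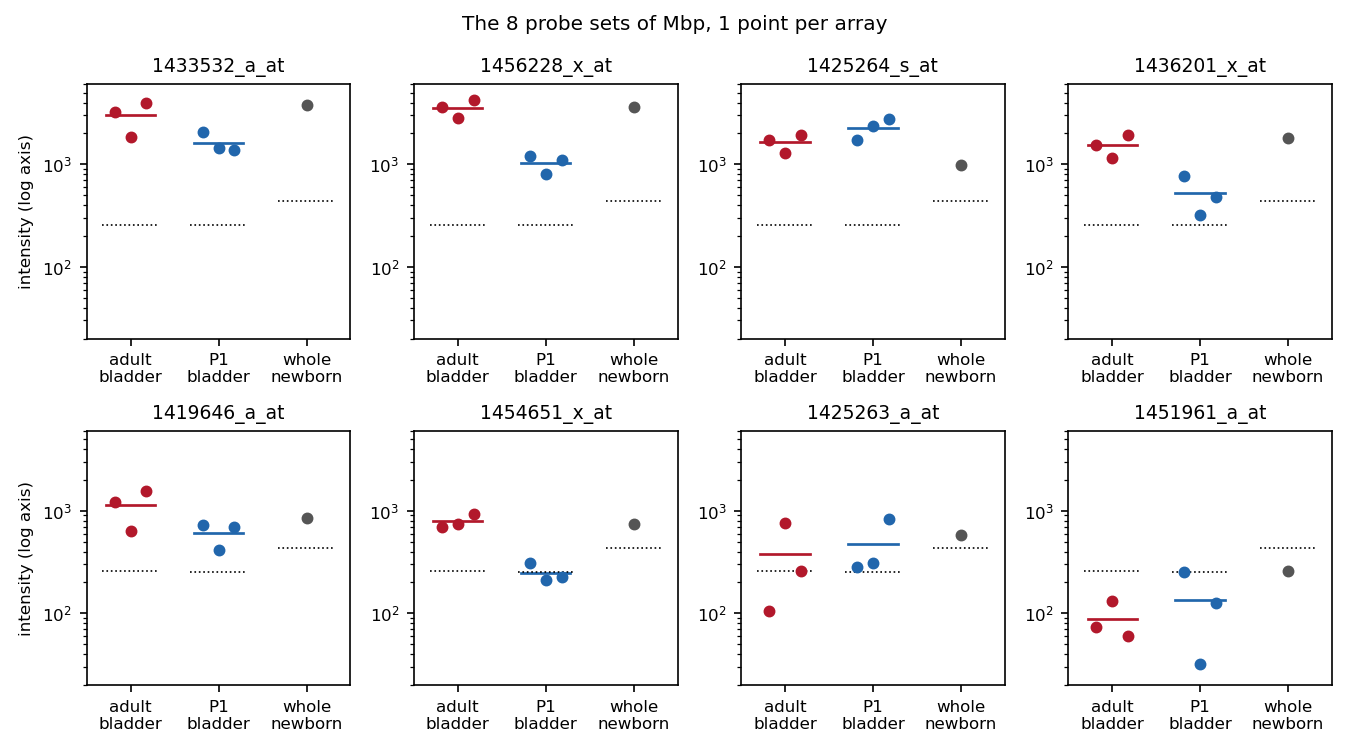
Intensity of the 8 Mbp probe sets (log axis, same limits in each panel) on the 3 adult bladder arrays, the 3 P1 bladder arrays and the whole newborn array, ordered by mean. Points, coloured lines and dotted lines are as in the plot of the 8 genes. The 3 probe sets with the suffix _x_at separate adult from P1 bladder, and 1425264_s_at runs the other way with overlapping groups.

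Mal, a proteolipid of myelin and of the apical membranes of epithelia, was called higher in both bladder groups than in the whole newborn. Probe set 1417275_at gave 23689.6, 24854.4 and 22051.5 in adult bladders, against 34536.6, 37103.6 and 18731.5 in P1 bladders and 1473.2 in the whole newborn. The bladder groups overlapped through P1 replicate 3, and the lowest bladder value was over 10 times the whole newborn. Adult bladder exceeded the whole newborn by 3.95 ± 0.39 (fold 15.5, adjusted p = 0.000536), and P1 bladder exceeded it by 4.25 ± 0.39 (fold 19, adjusted p = 0.000612). The second Mal probe set, 1432558_a_at, gave 6598.4, 13395.2 and 5415.3 in adult bladders, against 6761, 5631.3 and 11741.1 in P1 bladders and 785.8 in the whole newborn. It was also called, at 3.24 ± 0.56 for adult bladder (adjusted p = 0.00704) and 3.20 ± 0.56 for P1 bladder (adjusted p = 0.0107), so both Mal probe sets gave the same direction. Between the stages Mal differed by -0.30 ± 0.27 (adjusted p = 0.557) on the first probe set and by 0.033 ± 0.39 (adjusted p = 0.971) on the second.

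Mal was the 1 gene of the 8 called between adult bladder and whole newborn, of 6 tested, where 11.6% of 28062 probe sets were called (4.4% higher, 7.2% lower). It was likewise the 1 gene of 6 tested that was called between P1 bladder and whole newborn, where 7.42% of 28316 probe sets were called (2.3% higher, 5.12% lower). Both comparisons use the same single array, which was assumed to vary like the bladder arrays. All 3 adult bladders lay on 1 side of the whole newborn for 6 of the 8 genes (3 above, 3 below). Of the 6 tested genes they did so for 4, and they did for 68.2% of tested probe sets (28.9% above, 39.3% below). The 3 P1 bladders did so for 8 of the 8 genes (4 above, 4 below), and so for all 6 tested genes, against 65.4% of tested probe sets (27.7% above, 37.7% below). The median intensity of the whole newborn array was the highest of the 7, and median centring moved the median difference over all tested probe sets from -0.17 to 0.50 for adult bladder and from -0.15 to 0.53 for P1 bladder, so a difference smaller than this shift depends on the scaling. Mbp was the other gene with a called probe set: 1456228_x_at differed from the whole newborn by -0.058 ± 0.42 in adult bladder (adjusted p = 0.948), or 0.61 after median centring, and was lower in P1 bladder by -1.80 ± 0.41 (adjusted p = 0.0332). That call ended with median centring (-1.12, adjusted p = 0.172), without adult replicate 1 (adjusted p = 0.0688), without adult replicate 3 (0.0663) and without P1 replicate 2 (difference -1.63, adjusted p = 0.0717).

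Urothelial genes were high on the same arrays as Mal. The summed intensity of the 16 urothelial markers was 242400 to 324500 in adult bladders, 270300 to 370600 in P1 bladders and 59020 in the whole newborn. Of the 16, 10 were called higher and 0 lower in adult bladder than in the whole newborn, and 10 higher and 0 lower in P1 bladder. Among all tested probe sets 4.4% were called higher for adult bladder and 2.3% for P1 bladder. Upk1b, a uroplakin of the urothelial surface plaque, exceeded the whole newborn by 5.71 in adult bladder and 5.96 in P1 bladder on the log2 scale, and the epithelial keratin gene Krt7 by 3.97 in adult bladder and 4.06 in P1 bladder. Between the stages 0 of the 16 were called by limma at an adjusted p under 0.05, and 3 were lower in adult bladder at an unadjusted p under 0.05. Without adult replicate 2, Krt18 (-0.715, adjusted p = 0.0264) and Psca (-1.13, adjusted p = 0.0484) were called lower in adult bladder, and no other marker of the list was called. How much of the Mal signal came from urothelium and how much from myelin was not tested.

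Beyond the 8 genes, 2 of 16 tested genes of a wider Schwann lineage list were called between the stages. Over all tested probe sets 7.85% were called (3.73% higher and 4.12% lower in adult bladder). Of 21 further lineage genes listed, 18 had a probe set here, and 15 to 16 of them lay above the array median in adult bladders, 15 to 17 in P1 bladders and 15 in the whole newborn, and several of them have other sources, so the share contributed by Schwann cells was not tested. Between adult and P1 bladder 16 were tested, 1 was called higher and 1 lower, and the median difference was 0.00045, against 0.023 over all tested probe sets. Scn7a, a sodium channel relative carried by non-myelinating Schwann cells and some neurons, was the one that rose: it was at 19104.5, 9597.9 and 21056.7 in adult bladders, against 3315.6, 4677.6 and 2665.7 in P1 bladders and 3474.8 in the whole newborn. Every adult value was more than 2 times the highest P1 value, the difference was 2.17 ± 0.35 (adjusted p = 0.00787), and the call held without any single array. Ncam1, an adhesion molecule of immature and non-myelinating Schwann cells, neurons and developing muscle, was the one that fell: it was at 6832.4, 8863.8 and 7399.8 in adult bladders, against 22492.2, 14852.9 and 14667.8 in P1 bladders and 11531.4 in the whole newborn. Its groups did not overlap, and the difference was -1.15 ± 0.25 (adjusted p = 0.0238). That call ended without adult replicate 1 (adjusted p = 0.101), adult replicate 3 (0.106), P1 replicate 1 (0.0825) or P1 replicate 2 (0.0583). Cryab, a small heat shock protein also abundant in muscle, completed the 3 lineage genes of highest mean and differed by -0.48 ± 0.33 (adjusted p = 0.425). Without adult replicate 2, where it was at 14259.1 against 6061.1 and 6948.4 in the other adult bladders, Cryab differed by -0.85 ± 0.21 and passed (adjusted p = 0.0425).

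Set against the whole newborn, the same list had 1 higher and 2 lower genes of 17 tested in adult bladder, and 0 higher and 2 lower of 18 tested in P1 bladder, with median differences of -0.69 and -0.49. Of all tested probe sets 11.6% were called for adult bladder (4.4% higher, 7.2% lower) and 7.42% for P1 bladder (2.3% higher, 5.12% lower). Both lower genes of the list are transcription factors: Pou3f1 (also called Oct6), which drives the step into myelination and is also expressed in brain and skin, and Tfap2a, of neural crest and epidermis. Pou3f1 was at 195.1, 484.4 and 142.6 in adult bladders, against 7.92, 250.7 and 160.2 in P1 bladders and 7793.5 in the whole newborn. That is far below the whole newborn on every bladder array, with differences of -4.75 ± 0.94 for adult bladder (adjusted p = 0.0132) and -5.68 ± 0.94 for P1 bladder (adjusted p = 0.00818). Tfap2a differed by -2.29 ± 0.47 in adult bladder (adjusted p = 0.0156), a call that ended without adult replicate 1 (adjusted p = 0.0503), and by -2.42 ± 0.47 in P1 bladder (adjusted p = 0.0163). With median centring neither Tfap2a call held (adjusted p = 0.0531 for adult and 0.0538 for P1 bladder). The gene called higher in adult bladder was Scn7a, by 2.16 ± 0.49 (adjusted p = 0.0238), a call that ended without adult replicate 1 (adjusted p = 0.0677) or adult replicate 3 (0.0693).

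Of 19 genes listed for the peripheral myelin programme 16 had a probe set, and 8 of them were above the median on each adult array, 6 to 9 on the P1 arrays and 9 in the whole newborn. Between the stages 7 were tested and 0 were called by limma at an adjusted p under 0.05, or at an unadjusted p under 0.05 (also 0), with a median difference of 0.0052. The 3 of highest mean were Cnp, an enzyme of myelin and oligodendrocytes, Fa2h, which hydroxylates the fatty acids of myelin lipids, and Egr2, the transcription factor that switches on myelin genes. Cnp differed by 0.0052 ± 0.33 and Fa2h by 0.12 ± 0.33 between adult and P1 bladder. Egr2 was at 522.4, 4979.6 and 692.5 in adult bladders, against 757.1, 332.9 and 250.7 in P1 bladders and 2029.2 in the whole newborn, so adult replicate 2 was far above the other 5 bladder arrays, whose values overlapped, and the difference was 1.51 ± 0.77 (adjusted p = 0.272), or 0.53 without adult replicate 2 (adjusted p = 0.528). Of the 11 tested against the whole newborn in each bladder group, the called gene was Gjb1 (connexin 32, a gap junction protein of myelin), at 12.54, 27.36 and 12.08 in adult bladders, against 17.99, 4.67 and 71.01 in P1 bladders and 496.0 in the whole newborn. The differences were -3.05 ± 0.70 for adult bladder and -2.85 ± 0.69 for P1 bladder. Gjb1 entered these tests only through the whole newborn array, where it is high, and its bladder values all lie below their array's median, so the calls are given as a description and not as support.

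Signals between axon and Schwann cell, the partners of Erbb3 among them, were listed as 16 genes, of which 15 had a probe set and 10 were tested between the stages, with 0 called by limma at an adjusted or an unadjusted p under 0.05 and a median difference of 0.099. The 3 of highest mean were Ptpn11, a phosphatase downstream of receptor kinases, at 0.18 ± 0.17, Nab1, a partner of Egr2, at 0.68 ± 0.38, and Bace1, the protease that cuts neuregulin, at -0.30 ± 0.49. Bace1 was at 5047.1, 18373.2 and 4216.7 in adult bladders, against 9960.7, 7960.6 and 9271.0 in P1 bladders and 10184 in the whole newborn. Without adult replicate 2, its highest array, Bace1 differed by -0.96 ± 0.22 and passed (limma, adjusted p = 0.0374). Relative to the whole newborn, 2 of 13 tested were called higher and 1 lower in adult bladder, and 1 of 12 higher and 0 lower in P1 bladder. The share of all tested probe sets called was 11.6% for adult bladder and 7.42% for P1 bladder. Adgrg6 (Gpr126), the receptor needed for Schwann cells to start myelination, was higher in adult bladder by 1.67 ± 0.43 (adjusted p = 0.0358) and in P1 bladder by 1.91 ± 0.43 (adjusted p = 0.0291). Its values were 9509.9, 5597.5 and 9949.1 in adult bladders, against 7395.9, 12322.7 and 9617.5 in P1 bladders and 2510.0 in the whole newborn, all 6 bladder values above the last. Without adult replicate 1 or 3 these calls ended (adjusted p of 0.0504 to 0.104), as did the adult call without P1 replicate 3 (0.0504) and the P1 call without P1 replicate 2 (0.0709). Cntnap2, an axonal protein beside the nodes of Ranvier, was higher in adult bladder by 2.14 ± 0.42 (adjusted p = 0.0122). The lower gene was Nrg3, a neuregulin of neurons, at 1.38, 39.51 and 19.04 in adult bladders, against 26.03, 76.52 and 159.5 in P1 bladders and 531.4 in the whole newborn. Like Gjb1 it entered the test only through the whole newborn array, so its call is a description and no support.

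**Figure D4:**
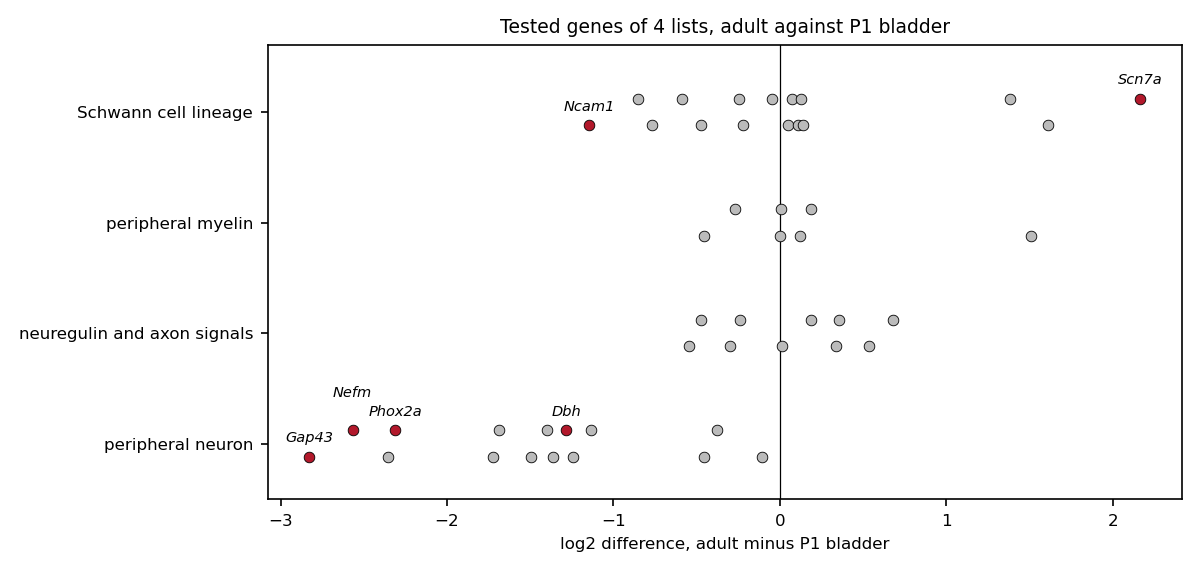
Log2 difference of adult minus P1 bladder for each tested gene of 4 lists, 1 point per gene, with called genes in red and named. In the Schwann cell lineage Scn7a is higher at 2.17 and Ncam1 lower at -1.15. In this fit, which includes adult replicate 2, the myelin and neuregulin lists have no called gene and the neuron list lies below 0. Phox2a entered it only through P1 arrays, and Gap43 mainly through them.

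Of 15 markers tested of the neurons whose axons these glia accompany, 0 were called higher, 4 lower and 11 not called between adult and P1 bladder, where 4.12% of all tested probe sets were called lower. The median difference was -1.40, against 0.023 over all tested probe sets. The 4 were Gap43, a protein of growing axons (-2.83 ± 0.59, adjusted p = 0.0209), Nefm, a neurofilament subunit (-2.57 ± 0.66, adjusted p = 0.0464), Phox2a, a transcription factor of autonomic neurons (-2.31 ± 0.42, adjusted p = 0.0122), and Dbh, the enzyme that makes noradrenaline (-1.29 ± 0.31, adjusted p = 0.0364). All adult values of Phox2a lay below their array's median. Phox2a entered the test only through P1 arrays, where it is high, so its call is a description and no support. Gap43 was at 274.8, 13.1 and 168.3 in adult bladders, against 949.7, 1421.3 and 1015.9 in P1 bladders and 2675.7 in the whole newborn. Among the adult arrays only adult replicate 1 read Gap43 above its median. Gap43 thus entered the test mainly through P1 arrays, where it is high, so its call is likewise a description and no support. The 3 of highest mean did not pass: Nefl differed by -1.72 ± 0.68 (adjusted p = 0.163), Stmn2 by -1.40 ± 0.58 (0.177) and Ret by -1.24 ± 0.96 (0.484). Without adult replicate 2 these were -0.79, -0.66 and 0.17, so the sign of Ret turned. Snap25 (0.40) and Chrna3 (0.34) were then also above 0, and the other markers below it, Syt1 at -0.0006. The summed intensity of the list was 20770, 6756 and 20140 in adult bladders, against 31520, 38110 and 25020 in P1 bladders and 28430 in the whole newborn, so adult replicate 2 was again the lowest array. Without adult replicate 2 all 4 stayed past the threshold, and Tubb3 was also called lower in adult bladder (-1.325, limma, adjusted p = 0.0431). Leaving out any one of the other arrays ended at least 1 of the 4 calls (adjusted p of 0.0521 to 0.136). With median centring the calls of Nefm (adjusted p = 0.0758) and Dbh (0.0548) ended, and with a pseudocount of 10 that of Nefm (0.0582). Cdh19, Scn7a and the standing Mbp probe set were also lowest among the adult bladders in adult replicate 2, and the part of the amount of nerve on each array in their values was not tested.

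Oligodendrocytes and melanocytes share genes with Schwann cells. Of 11 oligodendrocyte genes, 1 to 3 were above the median in adult bladders, 2 in each P1 bladder and 3 in the whole newborn, with summed intensities of 2930 to 3050, 2257 to 2446 and 5111. Olig1, the oligodendrocyte transcription factor, was at 150.5, 92.5 and 97.8 in adult bladders, against 15.1, 10.7 and 59.1 in P1 bladders and 2201.0 in the whole newborn. Cldn11, a tight junction protein of oligodendrocyte myelin and of other tissues, was the 1 gene of 2 tested in that list that was called between the stages: it was at 116.3, 46.1 and 141.4 in adult bladders, against 1096.5, 711.2 and 957.9 in P1 bladders and 542.8 in the whole newborn, a difference of -2.73 ± 0.42 (adjusted p = 0.0065). Its adult values all lay below their array's median. Cldn11 thus entered the test only through P1 arrays, where it is high, so its call is a description and no support. Bcas1, a protein of oligodendrocytes that is also made in epithelia and the oligodendrocyte gene of highest mean over all 7 arrays, was at 2293.2, 1554.3 and 2290.3 in adult bladders, against 882.4, 1160.2 and 626.7 in P1 bladders and 995.9 in the whole newborn. The adult values were all the higher ones, by 1.18 ± 0.33, not past the threshold (adjusted p = 0.0613; 1.36 without adult replicate 2, adjusted p = 0.0442). Of 9 melanocyte genes, which share Sox10 as a regulator, 2 to 3 were above the median in adult bladders, 3 to 4 in P1 bladders and 5 in the whole newborn, with summed intensities of 2786 to 4237, 1661 to 3134 and 9460. Mitf, the regulator of melanocytes that is also expressed in other cells, was at 2942.7, 1643.0 and 2471.5 in adult bladders, against 1707.7, 976.8 and 575.3 in P1 bladders and 1812.3 in the whole newborn, a stage difference of 1.17 ± 0.42 (adjusted p = 0.124). Of the 3 melanocyte genes tested between the stages 0 were called, and the median difference was -0.28. Pmel and Dct were called lower by limma than in the whole newborn in both bladder groups. Pmel differed by -2.85 in adult (adjusted p = 0.0226) and -2.57 in P1 bladder (0.0434), Dct by -3.32 (0.0135) and -4.07 (0.0072). Dct entered the P1 test only through the whole newborn array, where it is high, so that call is a description and no support. Of 10 cartilage genes, 0 to 2 were above the median in adult bladders, 2 to 3 in P1 bladders and 8 in the whole newborn, with 1002 to 1135, 1545 to 2169 and 35300; cartilage is a further source of S100b in a whole animal. The part of these cells in the values of Sox10, Mbp and S100b was not tested.

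**Figure D5:**
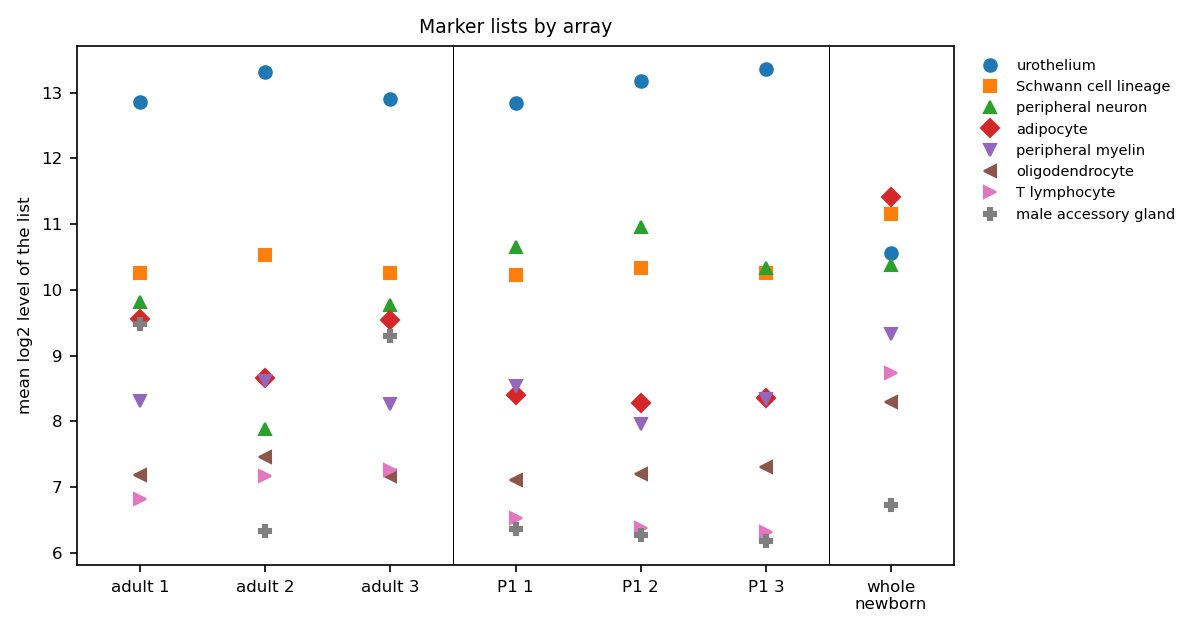
Mean log2(intensity + 49) of 8 marker lists on each of the 3 adult bladder arrays, the 3 P1 bladder arrays and the whole newborn array. The neuron list is lowest in adult replicate 2 at 7.88, the male accessory gland list is high only in adult replicates 1 and 3 at 9.48 and 9.29, and the urothelium list is lowest in the whole newborn at 10.56. Levels of different lists rest on different probe sets and are not compared with each other.

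The genes whose pattern was most like that of Sox10 over the 7 arrays, by Pearson's r of the log2 values among 11930 genes, were Ms4a6c (0.976), Fxyd6 (0.965), Jup (0.958), Cep131 (0.937) and Slamf9 (0.936). Ms4a6c, for example, was at 209.7, 692.5 and 446.6 in adult bladders, against 1639, 940.5 and 233.5 in P1 bladders and 1288.2 in the whole newborn. For the standing probe set of Mbp, among 11929 genes, they were Adk (0.973), Tspyl4 (0.972), Epdr1 (0.969), Msra (0.968) and Cnot6l (0.967). Adk, adenosine kinase, was at 25706.4, 14978.5 and 27127.2 in adult bladders, against 16542.2, 15157.3 and 13907.4 in P1 bladders and 25356.5 in the whole newborn, with the same low adult replicate 2 as Mbp. None of these 10 genes belongs to the lists above. With 7 arrays and this many genes, values of r this high describe the arrays and carry no test.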

How the data were processed

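The authors deposited 1 intensity per probe set on a linear scale and no detection calls. The tool GCOS is named in the submitters' processing notes, and the summary method is not given in the sources used here. On every array the mean without the top and bottom 2% of values was 1500.01. Of 45101 probe sets, 64 controls were left out; 34945 of the others name 1 gene, 932 several and 9160 none in the platform annotation. The tests were run with limma 3.58.1 under R 4.3.3 (lmFit, eBayes with a trend, two-sided, Benjamini-Hochberg over all tested probe sets, threshold 0.05) on log2(intensity + 49), 49 being the 20th percentile of all values; differences and folds are on that scale, which understates changes of low genes. The stage test held the 6 bladder arrays. The whole newborn tests held all 7 arrays, and a probe set above the median on 1 of the 4 arrays compared entered them. The genes and lists were chosen with earlier results of these data known. From each further list the called genes and the 3 of highest mean over the 7 arrays were to be named, and for Sox10 and Mbp the 5 most alike genes; Adipoq, Gap43, Upk1b, Krt7 and Olig1 were picked from these as examples after their values were seen. The script for the tests was tested on simulated data. The number of arrays limits the precision.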

Additional observations from a re-analysis of the deposited data

How the results depend on the processing

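Of 313 pairs of a standing gene and an alternative setting, 289 kept direction and side of the threshold, 15 came past it and 9 changed sign. Between adult and P1 bladder the count of probe sets called was 1829, and became 4660 with array weights, 1082 with 1 mean per gene, 245 with adult replicate 2 alone and 606 to 2321 when leaving out single arrays (highest without adult replicate 2, lowest without adult replicate 3). Members called higher numbered 1 with array weights (Mbp) and 1 without the adult and the P1 array of highest spike-in signal (adult replicate 2 and P1 replicate 3; Cdh19, which entered the test only through adult arrays), and 0 to 1 when leaving out single arrays. Members called lower numbered 1 with quantile normalization and 1 with array weights (Pmp22), 2 without these 2 arrays (Mal and Pmp22), and 0 to 1 when leaving out single arrays. The number of all probe sets called also changed with the setting, for example to 4660 with array weights against 1829. Member counts under the alternative settings, here and below, are therefore not a result about the members. Mal 1432558_a_at changed sign to -0.31 with array weights, -0.045 without these 2 arrays, and -0.056, -0.35 and -0.19 without P1 replicate 1, adult replicate 2 and P1 replicate 2 (-0.35 to 0.34 over all single arrays left out). Erbb3 changed sign to 0.014 with 1 mean per gene, 0.044 without P1 replicate 2 (-0.23 to 0.044 over all single arrays) and 0.12 with adult replicate 2 alone. The call of Mbp 1456228_x_at was also lost with adult replicate 2 alone (1.43, adjusted p = 0.21), as was that of Scn7a (1.46, adjusted p = 0.179). That of Mbp 1436201_x_at ended in 8 of 18 alternatives, and that of Nefm in 10 of 19.

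Between P1 bladder and whole newborn 2101 probe sets were called, against 1348 with a pseudocount of 10, 4172 with array weights, 4087 without these 2 arrays (2 members higher, Mal and Pmp22) and 962 with adult replicate 2 alone; Sox10 changed sign to 0.099 with median centring and 0.11 with quantile normalization. Between adult bladder and whole newborn 3255 were called, against 8364 with array weights, 6130 without these 2 arrays, 1166 with adult replicate 2 alone and 1799 to 4693 when leaving out single arrays. Members called higher numbered 2 with median centring, quantile normalization, array weights, 1 mean per gene and without these 2 arrays, and 1 to 2 when leaving out single arrays, the second being Cdh19, again through adult arrays alone. Median centring changed the sign for S100b (0.41), Pmp22 (0.52), Mbp (0.28), Mbp 1436201_x_at (0.42) and Mbp 1456228_x_at (0.61), and quantile normalization for S100b (0.26). Mbp 1456228_x_at was 0.12 with array weights and 0.098 without adult replicate 2 and without these 2 arrays, and Mbp 1454651_x_at -0.057 without adult replicate 3 (-0.057 to 0.14 over all single arrays). The causes were not tested. Leaving out adult replicate 2 and P1 replicate 3 together and using adult replicate 2 alone were chosen after seeing the data. No paired analysis was possible because the labels give the bladders no shared replicate numbers.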
